A study of Mus musculus with 12 samples.

Results

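The genes described here encode subunits of the NADPH oxidases, and they were followed in bulk RNA-sequencing of mouse brains taken at 14 d post-stroke. The members were fixed by name as the 5 phagocyte oxidase genes *Cybb*, *Cyba*, *Ncf1*, *Ncf4* and *Rac2* together with *Nox4*, which encodes an oxidase of non-phagocytic cells. Each symbol matched 1 row, so that the members were 6 of the 49315 genes in the count table and 6 of the 20290 genes with enough counts to be tested. All recipients were male CD45.1 Pep Boy mice that were irradiated at 8 to 12 weeks of age with the head shielded and transplanted with unfractioned bone marrow (BM). In the *Tet2*-KO group (n = 6) 10% of the BM cells were CD45.2 *Tet2*-/- and 90% were CD45.1 *Tet2*+/+. In the WT group (n = 6) the 10% of CD45.2 cells were *Tet2*+/+ instead. Every mouse then had the middle cerebral artery occluded for 30 min, 8 to 10 weeks after the transplant, and no brain without a stroke was analysed here. Only a share of the blood-borne cells could therefore lack *Tet2* in the *Tet2*-KO group, and the cells of the shielded brain itself carried intact *Tet2* in both groups.

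The phagocyte oxidase moves electrons from NADPH across a membrane onto oxygen and so makes superoxide, the start of the oxidative burst of neutrophils, monocytes, macrophages and microglia. Its membrane core is a heterodimer of gp91phox, the catalytic chain encoded by *Cybb*, and p22phox, encoded by *Cyba*. The core is silent until cytosolic proteins, among them p47phox (*Ncf1*) and p40phox (*Ncf4*), dock to it with a small GTPase of the Rac family, such as *Rac2*. *Nox4* also pairs with p22phox but needs no cytosolic subunit, makes mostly hydrogen peroxide and is known from vessel wall, kidney and fibroblasts. In the stroke brain, oxidases of both kinds are known as sources of reactive oxygen species.

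The promoters of 4 members are shown because the core subunits and *Nox4* are known to be switched on by different factors. A window of 250 bases before and 50 bases from the annotated start on was taken from RefSeq (GRCm38.p6, the build called mm10 in the labels) for *Cybb*, *Cyba*, *Ncf1* and *Nox4*, and each is written 5' to 3' on the strand of its gene. The windows were searched on both strands for 3 motifs. These were GAGGAA, the core of sites for the myeloid factor PU.1, the repeat to which interferon regulatory factors bind, read as GAAA followed by any 2 bases and a further GAAA, and GGGCGG, the box of the general factor Sp1. Matches are in capitals, as their reverse complement where they lie on the opposite strand, and no base belonged to more than 1 match. The windows are at chrX:9469275-9469574 (minus strand) for *Cybb*, chr8:122432891-122433190 (minus strand) for *Cyba*, chr5:134229576-134229875 (minus strand) for *Ncf1* and chr7:87246399-87246698 (plus strand) for *Nox4*. The RefSeq starts used for *Cybb* and *Nox4* lie inside the gene coordinates given below, which come from GENCODE. For these 2 genes the window is therefore not at the outer end of the gene as listed.
Cybb: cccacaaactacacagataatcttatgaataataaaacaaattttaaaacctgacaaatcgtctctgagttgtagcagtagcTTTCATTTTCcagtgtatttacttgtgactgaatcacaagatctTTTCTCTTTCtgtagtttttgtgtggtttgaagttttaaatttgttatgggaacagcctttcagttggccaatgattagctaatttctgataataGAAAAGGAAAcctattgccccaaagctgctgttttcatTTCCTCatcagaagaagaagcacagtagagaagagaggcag
Cyba: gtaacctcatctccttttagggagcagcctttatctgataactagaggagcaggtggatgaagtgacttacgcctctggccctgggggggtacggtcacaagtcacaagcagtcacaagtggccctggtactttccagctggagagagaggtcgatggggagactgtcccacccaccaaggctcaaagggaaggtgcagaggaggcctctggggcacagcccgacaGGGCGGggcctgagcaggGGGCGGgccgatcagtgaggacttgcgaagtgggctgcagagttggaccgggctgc
Ncf1: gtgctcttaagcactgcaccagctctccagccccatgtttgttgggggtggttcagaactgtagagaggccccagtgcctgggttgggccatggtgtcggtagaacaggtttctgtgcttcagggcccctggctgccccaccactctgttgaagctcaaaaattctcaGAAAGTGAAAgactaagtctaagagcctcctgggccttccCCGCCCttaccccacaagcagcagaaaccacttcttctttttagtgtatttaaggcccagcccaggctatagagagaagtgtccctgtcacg
Nox4: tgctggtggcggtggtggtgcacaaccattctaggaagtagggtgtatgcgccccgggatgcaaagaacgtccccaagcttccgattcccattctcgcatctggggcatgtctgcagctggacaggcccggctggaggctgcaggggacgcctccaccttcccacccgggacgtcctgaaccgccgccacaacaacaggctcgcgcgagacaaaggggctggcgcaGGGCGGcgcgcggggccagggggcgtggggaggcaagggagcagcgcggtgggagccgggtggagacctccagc
The interferon regulatory factor repeat occurred in 3.44% of all 32851 promoter windows of the same length, and it stood 3 times in the *Cybb* window and once in the *Ncf1* window. The first base of these matches was 168, 124 and 29 bases before the start in *Cybb* and 82 bases before the start in *Ncf1*. The *Cybb* window also held the PU.1 core, on the opposite strand from base 10 on, with the start as the first base, and 28.3% of all windows held this motif. The *Cyba* window held the Sp1 box at 24 and at 6 bases before the start, *Ncf1* held it once and *Nox4* once at 24 bases before the start, and 35.7% of all windows held it. A match describes the letters of a window and does not show binding.

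Libraries held 12000261 to 15340787 counts in WT mice and 12625047 to 21049763 counts in *Tet2*-KO mice. Levels are given as CPM, in which each library is brought to the same total and normalized by TMM, a correction for differences in composition between libraries. *Tet2* itself was at 126 to 147 CPM in WT mice and at 117 to 137 CPM in *Tet2*-KO mice, which does not check the group labels because most cells of every brain keep the gene. Markers of neurons, astrocytes and oligodendrocytes were abundant in every library, as the label brain requires. WT mouse 2 had the highest level of every member, and *Tet2*-KO mouse 5 the highest level of 5 of the members in its group. Results are therefore also given without them. These mice were picked from the members' own values. Leaving out the highest mouse of the lower group widens the difference, so calls made without it are not independent support. The labels give control cells as the treatment of every mouse, also in the *Tet2*-KO group, and the titles and genotype entries were followed.

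Every member had a lower mean level after transplantation of *Tet2*-KO than of WT BM cells, by 1.51-fold to 2.82-fold in the edgeR fit. The largest difference was that of the catalytic chain *Cybb*, followed by *Ncf4* and *Cyba*. Of the 6 members, 5 had an unadjusted p below 0.05, the exception being *Ncf1*, where 12.2% of all tested genes had such a p with a lower and 10.8% with a higher level. None had an adjusted p below 0.05, which 5 of all tested genes had (0.0246%). The median log2 fold change of the 5 phagocyte members was -1.09, against 0.010 over all tested genes, of which 47.7% lay below 0. Members were chosen with earlier results of these data known, and the median is a description of these 5 genes. In a bulk sample, fewer cells that express a gene and less RNA of it per cell cannot be told apart.

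*Cybb* (ENSMUSG00000015340, chrX:9435252-9487771) encodes the electron-carrying chain of the phagocyte oxidase. Its level in the WT group was lowest at 37.7 CPM in mouse 3, had a median of 51.1 CPM and was highest at 90.9 CPM in mouse 2. In the *Tet2*-KO group it was 1.98 CPM in mouse 1, 8.62 CPM in mouse 6, 9.53 CPM in mouse 2, 13.4 CPM in mouse 3, 24.7 CPM in mouse 4 and 61.7 CPM in mouse 5. The groups overlapped through *Tet2*-KO mouse 5 alone, which was above 5 of the WT mice, while the other five *Tet2*-KO mice lay below every WT mouse. The means were 55.6 ± 18.7 CPM in WT and 20.001 ± 21.8 CPM in *Tet2*-KO mice (SD, n = 6 per group). The edgeR quasi-likelihood fit put the log2 fold change at -1.49 with a standard error of 0.62, at an adjusted p of 0.186 over all tested genes. An exact two-sided permutation test of the CPM gave p = 0.0173 (n = 6 per group). Without *Tet2*-KO mouse 5 the log2 fold change was -2.24 and passed the adjusted threshold (edgeR adjusted p = 0.0215).

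*Cyba* (ENSMUSG00000006519, chr8:122424776-122432930) encodes p22phox, the partner that gp91phox needs to reach the membrane and that *Nox4* shares. WT mice ranged from 20.7 to 48.2 CPM with a median of 28.0 CPM, and *Tet2*-KO mice from 5.82 to 27.7 CPM with a median of 12.5 CPM. Again 5 of 6 *Tet2*-KO mice lay below every WT mouse and mouse 5 lay inside the WT range. The means were 30.7 ± 9.68 CPM and 14.4 ± 7.92 CPM (SD, n = 6 per group). In log2 units they differed by -1.09 ± 0.35 (standard error), with an edgeR adjusted p of 0.132. An exact two-sided permutation test gave p = 0.0108 (n = 6 per group).

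Among the cytosolic subunits, *Ncf4* separated the groups by a narrow gap and *Ncf1* did not. *Ncf4* (ENSMUSG00000071715, chr15:78244801-78262580), whose product p40phox binds a phagosomal lipid, was at 5.96 to 14.1 CPM in WT mice (median 7.25 CPM) and at 1.05 to 5.73 CPM in *Tet2*-KO mice (median 3.22 CPM). Each of the 6 *Tet2*-KO mice had less *Ncf4* than any WT mouse, a pattern seen in 0.641% of all tested genes. The nearest mice were *Tet2*-KO mouse 5 (5.73 CPM, 73 counts) and WT mouse 3 (5.96 CPM, 83 counts). Counting noise could close a gap of this size. The means were 8.16 ± 3.02 CPM and 3.33 ± 1.75 CPM (SD, n = 6 per group). The log2 fold change reached -1.30 with a standard error of 0.34 and an edgeR adjusted p of 0.116, and the exact two-sided permutation test gave 0.00216, the smallest p that 6 against 6 mice allow. *Ncf4* was also the only member past the adjusted threshold with the Wald test of DESeq2, the authors' test (adjusted p = 0.00758), which called 3.32% of its genes lower.

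*Ncf1* (ENSMUSG00000015950, chr5:134220053-134229625) encodes p47phox, the organizer that carries the cytosolic complex to the membrane once it is phosphorylated. It was at 32.7 to 60.03 CPM in WT mice (median 34.1 CPM) and at 11.03 to 41.7 CPM in *Tet2*-KO mice (median 23.7 CPM). *Tet2*-KO mice 4 and 5 lay inside the WT range, above the WT median, and the other four below it. *Ncf1* had the smallest difference of the members, from 38.4 ± 10.7 CPM to 25.5 ± 11.6 CPM (SD, n = 6 per group), which in log2 units is -0.59 ± 0.30 (standard error) with an edgeR adjusted p of 0.267. The exact two-sided permutation test gave p = 0.0628 (n = 6 per group). Exons of *Ncf1* overlap those of *Gtf2ird2* on the opposite strand, and the strand used in counting is not given in the sources used here, so its counts are uncertain. *Gtf2ird2* was at 18.9 ± 1.79 CPM in WT and 19.8 ± 1.77 CPM in *Tet2*-KO mice (SD, n = 6 per group).

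*Rac2* (ENSMUSG00000033220, chr15:78559167-78572783), a blood-cell Rac that can complete the active oxidase, was at 16.6 to 38.2 CPM in WT mice (median 19.8 CPM) and at 3.72 to 20.7 CPM in *Tet2*-KO mice (median 11.2 CPM). *Tet2*-KO mice 3 and 5 lay inside the WT range and 4 of 6 lay below it. Between the groups *Rac2* differed by -0.92 ± 0.39 log2 units (standard error), with an edgeR adjusted p of 0.192, means of 22.8 ± 8.06 CPM and 12.1 ± 6.77 CPM (SD, n = 6 per group) and p = 0.0303 in the exact two-sided permutation test. *Rac1*, its relative found in every cell type, was at 256.7 ± 9.74 CPM in WT and 256.5 ± 15.6 CPM in *Tet2*-KO mice (SD, n = 6 per group). Its log2 difference was -0.00094 ± 0.049 (standard error) with an edgeR adjusted p of 0.994, and turned positive with upper quartile scaling. Exons of *Rac1* overlap those of Daglb on the opposite strand, so its counts carry the same uncertainty as those of *Ncf1*. *Rac3*, the neuronal member of the family, was at 10.6 ± 0.868 CPM and 11.4 ± 1.74 CPM.

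**Figure D1:**
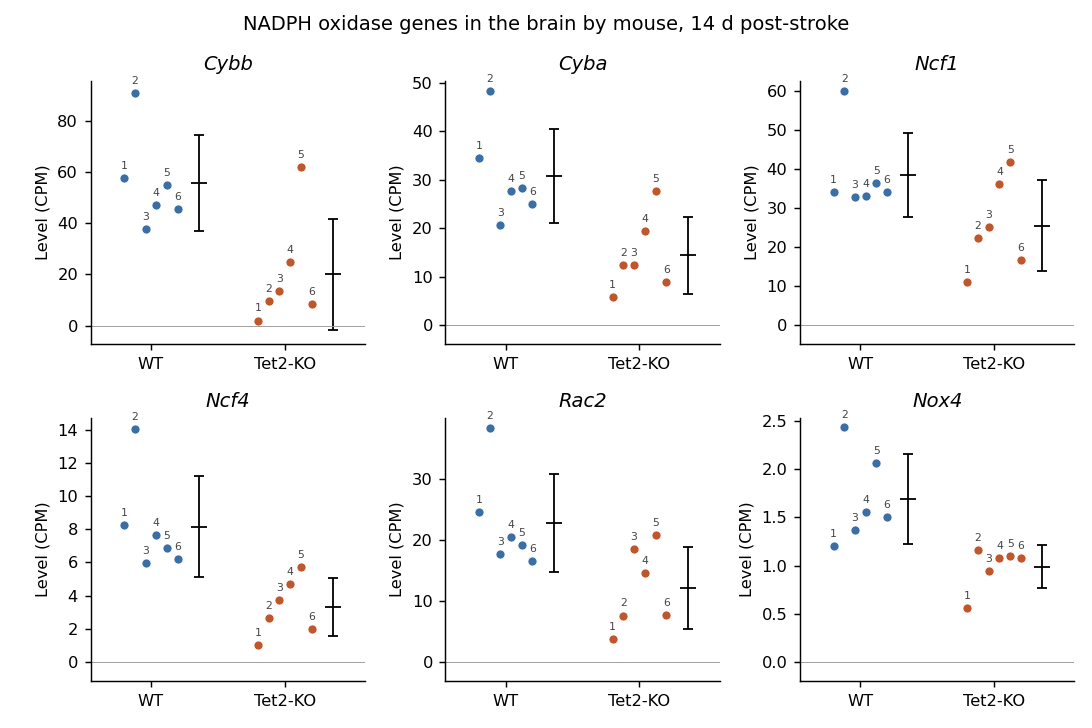
Level of each of the 6 NADPH oxidase genes in CPM (linear axis) in each mouse, with the mouse number above its point; the black bar gives the mean and the SD of the 6 mice. WT mouse 2 is highest for every gene, *Tet2*-KO mouse 5 overlaps the WT mice for 4 of the genes, and for *Ncf4* and *Nox4* all *Tet2*-KO points lie below all WT points. The gaps are narrow, and 0.641% of all tested genes have this pattern.

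*Nox4* (ENSMUSG00000030562, chr7:87246096-87398710) was scarce in these brains, with 9 to 34 counts per mouse. WT mice had 1.203, 1.36, 1.51, 1.56, 2.06 and 2.44 CPM. *Tet2*-KO mice had 0.558, 0.941, 1.08, 1.08, 1.10 and 1.17 CPM. No *Tet2*-KO mouse reached the lowest WT mouse, a pattern seen in 0.641% of all tested genes. However, the gap between the groups, from 1.17 to 1.203 CPM, is smaller than what a single read is worth in either of those libraries. The means were 1.69 ± 0.467 CPM and 0.987 ± 0.223 CPM (SD, n = 6 per group), which is -0.76 ± 0.22 in log2 units (standard error) with an edgeR adjusted p of 0.119. The exact two-sided permutation test gave 0.00216, the smallest p possible with 6 mice per group.

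The measured spread of the *Tet2*-KO mice was narrower for *Nox4* than for the phagocyte genes. The coefficient of variation of *Cybb* was 33.5% in WT and 109% in *Tet2*-KO mice. In *Tet2*-KO mice it was lower for the other phagocyte genes, at 54.8% for *Cyba*, 45.5% for *Ncf1*, 52.6% for *Ncf4* and 55.8% for *Rac2*, where WT mice had 27.8% to 37.0%. That of *Nox4* was 27.7% in WT and 22.6% in *Tet2*-KO mice. Relative to the mean log2 CPM of WT mice, *Cybb* in *Tet2*-KO mice spanned from -4.66 in mouse 1 to 0.21 in mouse 5, whereas *Nox4* spanned from -1.36 in mouse 1 to -0.45 in mouse 2. *Tet2*-KO mouse 5, which was inside the WT range for *Cybb*, *Cyba*, *Ncf1* and *Rac2*, was at -0.53 for *Nox4*, next to mice 4 (-0.55) and 6 (-0.55). The log2 ratio of *Cybb* to *Nox4* was 5.03 ± 0.32 in WT mice and 3.67 ± 1.38 in *Tet2*-KO mice (SD, n = 6 per group), below every WT mouse in 5 of 6 and above every WT mouse in mouse 5. With 9 to 24 counts of *Nox4* per *Tet2*-KO mouse, counting noise is a large part of its spread. The prior count also draws its log2 values together more than those of *Cybb*. Its spread therefore cannot show an even difference over the mice. These ratios are a description and were not tested.

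**Figure D2:**
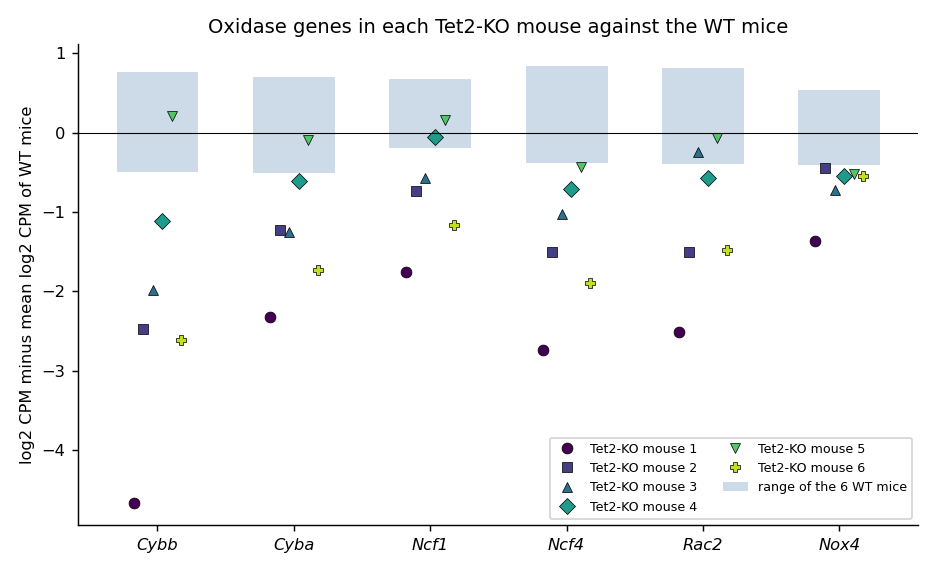
log2 CPM of oxidase genes in each *Tet2*-KO mouse minus the mean log2 CPM of the WT mice; shaded boxes give the range of the 6 WT mice and each symbol is 1 mouse. *Cybb* has the widest spread, from -4.66 in mouse 1 to 0.21 in mouse 5, and *Nox4* in 5 of the mice lies between -0.72 and -0.45.

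*Cybb* and *Cyba* kept a nearly fixed proportion in WT brains and a varying one in *Tet2*-KO brains. The ratio of *Cybb* to *Cyba*, the pair that forms the membrane core, lay between 1.67 and 1.94 in the WT mice, with a mean of 1.81 ± 0.102 (SD, n = 6). In the *Tet2*-KO mice it was 0.340, 0.760, 0.974, 1.09, 1.27 and 2.23, with a mean of 1.11 ± 0.635 (SD, n = 6). The 5 mice with less *Cybb* than any WT mouse also had less *Cybb* per *Cyba* than any WT mouse, and mouse 5 had more. The ratio of *Cyba* to *Ncf1* was 0.799 ± 0.127 in WT and 0.552 ± 0.0587 in *Tet2*-KO mice (SD, n = 6 per group), and 5 of 6 in the *Tet2*-KO group had a lower ratio than any WT mouse. This ratio shares the uncertainty of the *Ncf1* counts. The ratio of *Ncf4* to *Cyba* was closer between the groups, 0.264 ± 0.0240 against 0.229 ± 0.0424. The ratio of *Rac2* to *Cyba* was 0.739 ± 0.0733 in WT mice and 0.852 ± 0.326 in *Tet2*-KO mice, where mouse 3 stood at 1.49. All of these are ratios of CPM and carry no test.

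**Figure D3:**
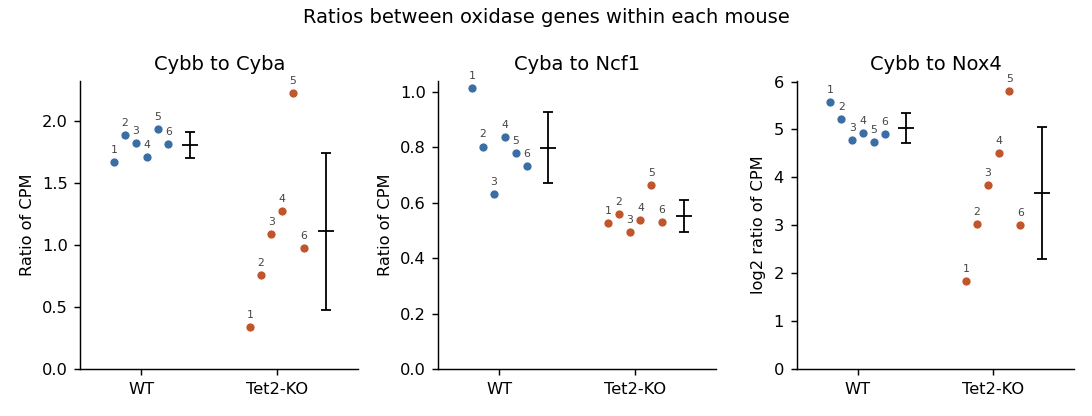
Ratio of *Cybb* to *Cyba*, ratio of *Cyba* to *Ncf1* (both linear ratios of CPM) and log2 ratio of *Cybb* to *Nox4* within each mouse, with mouse numbers and the mean and SD of each group of 6 in black. The *Cybb* to *Cyba* ratio of WT mice lies between 1.67 and 1.94, and 5 of 6 *Tet2*-KO mice lie between 0.340 and 1.27.

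Compared per length, as CPM per kilobase of exon, *Cyba* was the most abundant member in WT brains at 29.6 ± 9.32, above every other member in all 6 mice. *Ncf1* (10.5 ± 2.91) and *Cybb* (9.58 ± 3.21) followed with overlapping ranges, then *Rac2* (7.33 ± 2.60) and *Ncf4* (4.04 ± 1.49), while *Nox4* was at 0.199 ± 0.0552 (SD, n = 6). The ranges of *Cyba* and *Ncf1* and those of *Ncf4* and *Nox4* did not overlap in WT mice, and the neighbours between them did. In *Tet2*-KO brains *Cybb* stood behind *Rac2*, at 3.44 ± 3.75 against 3.91 ± 2.18 CPM per kilobase (SD, n = 6), and *Rac2* was higher in 5 of 6 mice. With the longest transcript as the length instead, the means of that pair were 4.21 and 3.99, so that this order depends on the length used. In WT brains *Cybb* was the higher of that pair in all 6 mice.

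Over the 12 mice the log2 CPM of the phagocyte members moved together, with Pearson's r between 0.93 and 0.98 for the 10 pairs and Spearman's rho between 0.73 and 0.97. For the 5 pairs with *Nox4*, r lay between 0.76 and 0.85. With the 2 mice farthest from the median of the first gene left out, these ranges were 0.81 to 0.96 and 0.58 to 0.75. Within the WT mice alone r was 0.85 to 0.99 among phagocyte members and 0.55 to 0.81 with *Nox4*, and within the *Tet2*-KO mice it was 0.87 to 0.99 and 0.64 to 0.75 (n = 6 each). The genes of a pair share their libraries, *Nox4* has far fewer counts, and these coefficients are a description. Of 19032 genes with a mean of at least 1 CPM, those most like *Cybb* over the 12 mice were *Lum* (r = 0.997), which encodes a matrix proteoglycan of fibroblasts, *H2-Aa* (0.996), a chain of the class II antigen-presenting molecule, *Ifi211* (0.995), *Parp14* (0.995) and *Gm1966* (0.994). Those most like *Nox4* were *Tmed5* (0.963), *Mdm2* (0.947), which encodes the ubiquitin ligase of p53, *Tmem168* (0.946), *Gm44752* (0.942) and *Eprs* (0.940). Counting noise is a large part of the variation of *Nox4* within a group. Genes picked as the highest of 19032 coefficients can match such noise by chance. The genes named for *Cybb* had log2 fold changes between -1.67 and -1.03, and 4 of the 5 named for *Nox4* between -0.31 and -0.096, *Gm44752* being at -0.78.

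Other genes of the oxidase were read from a list, of which 7 of 10 could be tested. In edgeR none had an adjusted p below 0.05, 4 had an unadjusted p below 0.05 with a lower level in *Tet2*-KO mice and none with a higher level, and the median log2 fold change was -0.29. Of all tested genes 12.2% had such a p with a lower and 10.8% with a higher level. A negative regulator and a chaperone of gp91phox were lower in *Tet2*-KO mice, by different amounts. *Nrros*, a negative regulator that removes gp91phox before it is assembled, was at 31.1 ± 9.25 CPM in WT and 15.6 ± 7.003 CPM in *Tet2*-KO mice (SD, edgeR adjusted p = 0.124), and it passed the threshold with DESeq2 (adjusted p = 0.0379), with limma-voom (0.00876) and in edgeR without *Tet2*-KO mouse 5 (0.0249). *Cybc1*, the chaperone of the gp91phox and p22phox pair, was at 18.6 ± 1.71 and 16.04 ± 0.337 CPM (log2 difference -0.21, edgeR adjusted p = 0.124). *Hvcn1*, the proton channel that balances the charge of the burst, differed by -0.82 (edgeR adjusted p = 0.224). The Tks organizers of invasive protrusions, *Sh3pxd2a* and *Sh3pxd2b*, were at -0.29 and -0.60 and passed with the same tests and without the same mouse. *Poldip2*, a partner of *Nox4*, was at 0.088. *Noxo1*, the organizer of *Nox1*, was at 0.098 with 1.33 and 1.43 CPM.

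**Figure D4:**
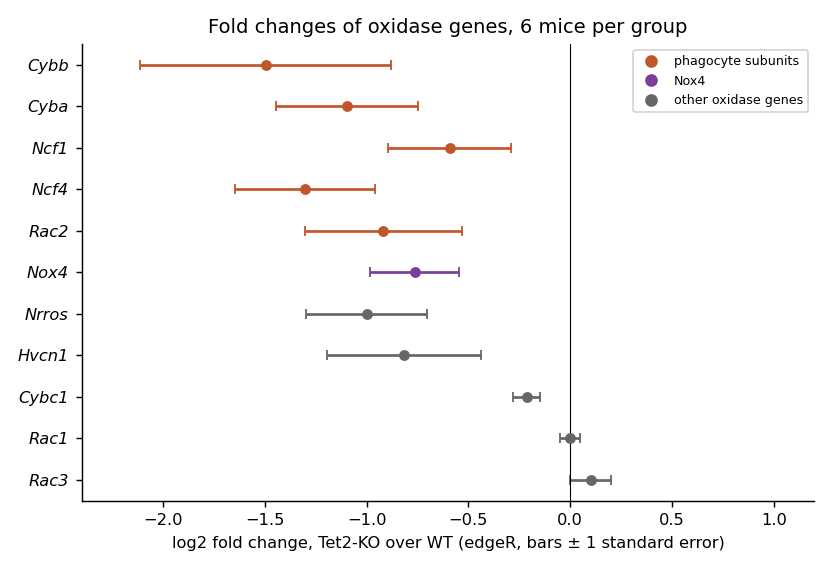
log2 fold change (*Tet2*-KO over WT, edgeR) of the 6 members and of other oxidase genes, with bars of 1 standard error. All members lie between -1.49 and -0.59, *Hvcn1* at -0.82, and *Rac1* and *Rac3* between -0.00094 and 0.10.

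The other catalytic subunits were near the limit of detection. *Duox1* alone was tested, at 0.895 ± 0.150 CPM in WT and 1.04 ± 0.182 CPM in *Tet2*-KO mice (log2 difference 0.20, edgeR adjusted p = 0.640). *Nox1*, with 6 to 15 counts per mouse, was removed by the filter on low counts, and lay at 0.689 ± 0.189 CPM in WT and 0.728 ± 0.188 CPM in *Tet2*-KO mice (SD, n = 6 per group). Fitted without the filter, its log2 difference was 0.045 ± 0.28 (standard error, edgeR adjusted p = 0.959). *Nox3* reached at most 4 counts in a mouse and *Duox2* at most 7, and *Noxa1*, *Duoxa1* and *Duoxa2* at most 3. These genes were not tested between the groups with the filter in place.

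Genes around the oxidase were read from lists, and none of their genes had an adjusted p below 0.05 in edgeR with all mice. Over all tested genes, 12.2% had an unadjusted p below 0.05 with a lower and 10.8% with a higher level. Of the 8 tested receptors known to trigger the burst, all 8 had an unadjusted p below 0.05 with a lower level in *Tet2*-KO mice, and the median log2 fold change was -0.98. They included the complement receptor *C5ar1* (-1.41), the Fc receptor *Fcgr4* (-1.26) and the beta-glucan receptor *Clec7a* (-1.22). Of 11 tested transcription factors known to drive phagocyte oxidase genes, all 11 did so, with a median of -0.74. The lowest were *Runx1* (-1.04), *Irf8* (-0.92) and *Cebpb* (-0.89). *Spi1*, which encodes PU.1, was at -0.89 and *Irf1* at -0.78. Among 13 kinases and lipid enzymes that prime the oxidase, 7 had an unadjusted p below 0.05 with a lower and 2 with a higher level, from *Fgr* (-1.74), *Syk* (-1.13) and *Lyn* (-0.78), which are kinases of blood cells, to *Prkcb* at 0.22. Among 12 genes of the Rac family and its regulators 7 were lower and 1 higher, with the exchange factors *Vav1* (-0.87) and *Dock2* (-0.84) and the inhibitor *Arhgdib* (-0.73) lowest and the exchange factor *Tiam1* at 0.31. Other settings called genes of these 4 lists. DESeq2 called 0 of the receptors, 6 of the transcription factors, 2 of the kinases and lipid enzymes and 1 of the Rac genes lower. With limma-voom these counts were 8, 9, 6 and 5, in edgeR without *Tet2*-KO mouse 5 they were 6, 9, 7 and 5, and with WT mouse 2 left out as well they were 2, 4, 5 and 2. Over all genes the shares called lower in these 4 settings were 3.32%, 7.01%, 7.30% and 4.94%. In each of these 4 settings the kinase *Pak1* was called higher, and the exchange factor *Tiam1* was called higher with limma-voom and with both mice left out.

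Of 9 genes of TGF-beta signalling and the hypoxia response, which are known to induce *Nox4*, 3 had an unadjusted p below 0.05 with a lower and 1 with a higher level, and the median was -0.046. The 3 lower genes were *Hif1a* (-0.30), *Tgfb1* (-0.90) and its receptor *Tgfbr1* (-0.42), and the higher gene was the signal carrier *Smad3* (0.12). The receptor *Tgfbr2* was at -0.57 with an unadjusted edgeR p of 0.0502. Of 7 tested genes of other sources of reactive oxygen or nitrogen species, 1 was lower, with *Nos2*, the inducible nitric oxide synthase, at -0.68, *Xdh* at -0.60, *Nos3* at -0.14 and *Nos1* at 0.15. Of 27 antioxidant genes, 11 were lower and none higher, with a median of -0.064. The heme-degrading enzyme *Hmox1* (-1.32), the cystine carrier *Slc7a11* (-0.90) and the extracellular peroxidase *Gpx3* (-0.83) had the lowest values, and *Gclm*, a subunit of the glutathione-making ligase, the highest at 0.083. Of the antioxidant genes DESeq2 called 3 lower, limma-voom 6 and edgeR without *Tet2*-KO mouse 5 also 6. Of the TGF-beta and hypoxia genes these settings called 0, 3 and 1 lower. Over all genes they called 3.32%, 7.01% and 7.30% lower. In edgeR with all mice, 12.2% of all genes had an unadjusted p below 0.05 with a lower level.

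Markers of several cell types moved with the oxidase genes, and their part in the result was not tested. For comparison, 12.2% of all tested genes had an unadjusted p below 0.05 with a lower and 10.8% with a higher level. The 8 markers of monocytes and macrophages were *Ccr2*, *Ly6c2*, *Plac8*, *F13a1*, *Lyz2*, *Ms4a7*, *Itga4* and *Fn1*, and how specific they are to these cells here was not tested. All 8 had an unadjusted p below 0.05 with a lower level, and their median log2 fold change was -1.70. Their summed levels were 745 to 1754 CPM in WT and 169 to 949 CPM in *Tet2*-KO mice. The 6 fibroblast markers were all lower as well, with a median of -1.33, and the 5 markers of activated phagocytes had a median of -1.67. Homeostatic microglia markers had a median of -0.21, with 1 of 8 at an unadjusted p below 0.05 and summed levels of 687 to 1249 CPM in WT and 325 to 874 CPM in *Tet2*-KO mice. Among them *P2ry12* was at 39.9 ± 4.53 and 41.2 ± 7.92 CPM and *Tmem119* at 40.0 ± 9.74 and 36.6 ± 10.5 CPM. Of 11 neutrophil markers 4 were tested and all 4 were lower, *S100a8* and *S100a9* past the adjusted threshold (both 0.0364, edgeR), while the defining genes *Ly6g*, *Elane* and *Mpo* had at most 1, 2 and 8 counts in a mouse. The 3 tested T cell markers had a median of -1.02 and the 1 tested B cell marker was at -1.28. Endothelial markers (-0.13), pericyte and smooth muscle markers (-0.10), astrocyte markers (-0.12) and oligodendrocyte markers (-0.0062) had medians nearer to 0. Of the 8 endothelial markers 3 had an unadjusted p below 0.05 with a lower level, *Cldn5* (-0.45), *Kdr* (-0.39) and *Cdh5* (-0.37), and of the 8 pericyte and smooth muscle markers *Pdgfrb* did (-0.58). For both vascular lists the summed level of 4 of 6 *Tet2*-KO mice lay below every WT mouse. Of the astrocyte markers 1 had such a p with a higher level, and of the oligodendrocyte markers none. Neuron markers had a median of 0.23 with all 8 higher, and red blood cell markers one of 0.54.

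Set against these sums, the members did not all follow one marker list. *Cybb* amounted to 6.72 ± 0.969% of the summed CPM of the homeostatic microglia markers in WT mice and to 2.72 ± 2.30% in *Tet2*-KO mice (SD, n = 6 per group), and mouse 5 alone of the *Tet2*-KO group lay inside the WT range. Against the monocyte and macrophage markers it amounted to 5.23 ± 0.605% and 3.89 ± 1.79%, with 4 of 6 below and mouse 5 above every WT mouse. *Ncf1* went the other way against the monocyte and macrophage markers, at 3.68 ± 0.582% in WT and 6.67 ± 1.24% in *Tet2*-KO mice, with 5 of 6 *Tet2*-KO mice above every WT mouse. Its counts are uncertain because of the overlap with *Gtf2ird2*, and the effect of this on its share was not tested. *Cyba* was at 2.89 ± 0.293% and 3.63 ± 0.478% of the same sum, also with 5 of 6 above. *Ncf4* was at 0.759 ± 0.0458% and 0.837 ± 0.212%. *Rac2* was at 2.12 ± 0.0999% and 3.10 ± 1.30%, and *Nox4* at 0.164 ± 0.0408% and 0.295 ± 0.115%, each with 4 of 6 above every WT mouse. *Cybb* was thus the only member with a lower mean share of this sum in *Tet2*-KO mice. All 6 members were at a lower mean percentage of the microglia sum in *Tet2*-KO mice, and *Ncf4* was below every WT mouse in all 6. These shares carry no test.

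**Figure D5:**
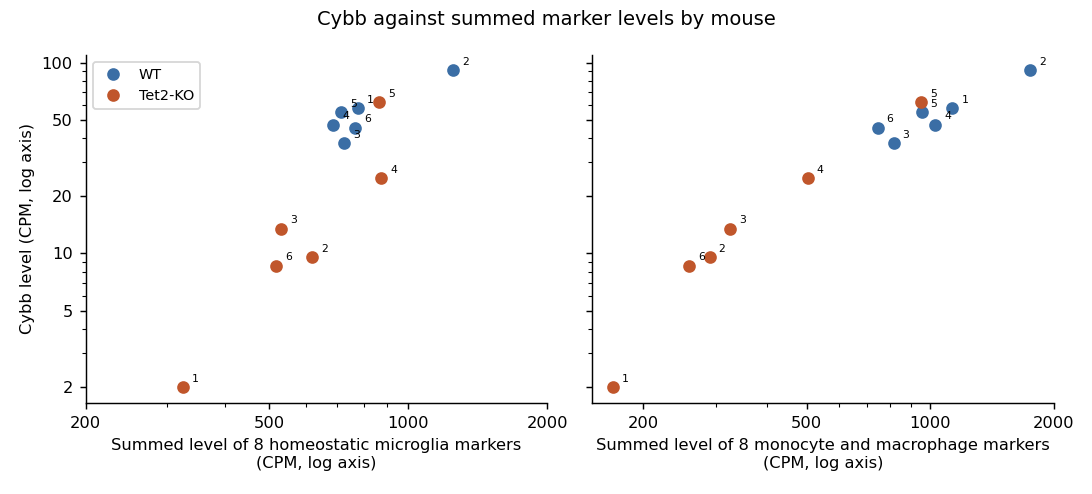
*Cybb* level in CPM (log axis) of each mouse against the summed CPM (log axis) of 8 homeostatic microglia markers and of 8 monocyte and macrophage markers, with mouse numbers. *Tet2*-KO mouse 4 has a microglia sum of 874 CPM, above 5 of the WT mice, at a *Cybb* level of 24.7 CPM, and mouse 1 is lowest in all 3 quantities.

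The calls of single members depended on the test and on *Tet2*-KO mouse 5, and none of the settings changed the sign of any member. With limma-voom and quality weights, which give divergent libraries less weight, *Cybb*, *Cyba*, *Ncf4* and *Rac2* passed the adjusted threshold (adjusted p between 0.00685 and 0.0357), where 7.01% of all genes were called lower. Without *Tet2*-KO mouse 5, *Cybb*, *Cyba*, *Ncf4* and *Nox4* passed it in edgeR (adjusted p between 0.0215 and 0.0444, 7.30% of genes called lower). With WT mouse 2 left out as well, *Cybb* (adjusted p = 0.0400), *Cyba* (0.0413) and *Ncf4* (0.0260) passed, against 4.94% of genes called lower. With WT mouse 2 alone left out, no member passed. The unadjusted edgeR p was then 0.0762 for *Cybb*, 0.0989 for *Rac2* and 0.192 for *Ncf1*. It was 0.0268 for *Cyba*, 0.00606 for *Ncf4* and 0.0107 for *Nox4*. As these mice were chosen from the members' own values, the calls without them describe this dependence and are not further support.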

How the data were processed

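The authors depleted ribosomal RNA, trimmed paired reads with Trimmomatic 0.36, aligned them to mm10 with STAR 2.5.2b and used featureCounts (Subread 1.5.2) on unique reads within exons. They deposited whole-number counts per gene without normalization. The annotation release and the strand setting are not given in the sources used here. Symbols, coordinates and lengths were taken from GENCODE M21 (49056 of 49315 identifiers matched, 48970 with a symbol in the table used), and promoter windows from RefSeq GRCm38.p6 (4 of 6 members matched; those of *Ncf4* and *Rac2* were not used here).

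Genes were kept by filterByExpr, scaled by TMM and tested in R 4.3.3 with edgeR 4.0.16 (robust quasi-likelihood F test, 12 mice, no covariate), with Benjamini-Hochberg adjustment over 20290 genes and a threshold of 0.05. A standard error is the fitted log2 change over the root of its F value, and log2 CPM used a prior count of 2. CPM of single genes were compared by exact two-sided permutation over mice. Alternatives were DESeq2 1.42.0, limma 3.58.1 (voom with quality weights), other scalings and filters, a block by replicate number, each mouse left out in turn, *Tet2*-KO mouse 5 and WT mouse 2 left out together, transcript length and a shorter promoter window. Scripts were tested on simulated counts. The genes named are the members, the oxidase genes of the lists, the 3 lowest and the 1 highest log2 fold change of each other list, and the 5 genes most like *Cybb* and *Nox4* in log2 CPM. The monocyte and macrophage markers are named as a whole list. *Spi1*, *Irf1*, *Hif1a*, *P2ry12*, *Tmem119*, *S100a8*, *S100a9*, *Cldn5*, *Kdr*, *Cdh5*, *Pdgfrb*, *Pak1* and the near-absent neutrophil genes were named after their values were seen. A few genes of the lists are not reported here. The members and lists were chosen with earlier results of these data known. Libraries of a group differed by more than sampling noise (chi-square per degree of freedom 2.00 to 27.5). Each library is labelled as 1 mouse. The authors' own comparisons and the paper's other assays were not used here.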

Additional observations from a re-analysis of the deposited data

Results flagged for a closer look

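In 5 of 26 groups of 6 mice examined (members, *Nrros* and ratios), 1 mouse lay apart from the other five by Dixon's criterion, which chance gives in about 1 in 20 groups, and these groups share their mice. WT mouse 2 was highest and apart for *Ncf1* (60.03 CPM, the others 32.7 to 36.4), *Ncf4* (14.1 CPM, the others 5.96 to 8.27) and *Rac2* (38.2 CPM, the others 16.6 to 24.5). *Tet2*-KO mouse 1 was lowest and apart for *Nox4* (0.558 CPM, the others 0.941 to 1.17). *Tet2*-KO mouse 3 had the highest ratio of *Rac2* to *Cyba* (1.49, the others 0.609 to 0.878). *Tet2*-KO mouse 5 was not apart for any member by this criterion, but for *Cybb* it fell only just short. It had 61.7 CPM of *Cybb*, and the others had 1.98 to 24.7 CPM. The cause of the flagged values was not tested.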

How the results depend on the processing

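None of the 119 member values under the alternatives changed sign. The count of genes past the adjusted threshold, 5 in edgeR, was 898 with DESeq2, 2013 with limma-voom, 44 without a filter on low counts, 0 with at least 10 counts in every library (4241 genes at an unadjusted p below 0.05) and 1554 with *Tet2*-KO mouse 5 and WT mouse 2 left out. With each mouse left out it ranged from 0 to 2257, the highest without *Tet2*-KO mouse 5; in the 8 such fits with 0 genes, 3629 to 5386 genes had an unadjusted p below 0.05. The count of members past it, 0 in edgeR, was 1 with DESeq2, 4 with limma-voom, 3 with both mice left out and between 0 and 4 with each mouse left out, and only the fit without *Tet2*-KO mouse 5 gave any.

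With limma-voom the log2 fold changes past the threshold were -2.09 for *Cybb*, -1.12 for *Cyba*, -1.29 for *Ncf4* and -0.99 for *Rac2*, and with DESeq2 -1.30 for *Ncf4*. With both mice left out they were -2.04 for *Cybb*, -1.19 for *Cyba* and -1.27 for *Ncf4*. With each mouse left out, *Cybb* ranged from -2.24 to -1.25, *Cyba* from -1.37 to -0.92, *Ncf4* from -1.50 to -1.08, *Nox4* from -0.84 to -0.63, *Ncf1* from -0.78 to -0.42, *Rac2* from -1.13 to -0.71 and the median of the 5 phagocyte members from -1.37 to -0.92. Without *Tet2*-KO mouse 5 the value of *Nox4* was -0.79. The sign changed for *Rac1*, with limma-voom (0.0019), upper quartile scaling (0.033), no filter (0.0022), both mice left out (0.014) and single mice left out (-0.029 to 0.023), and for *Noxo1* (-0.0055 to 0.15 with single mice left out). Over all genes the median was 0.010 in log2 units and 0.043 with upper quartile scaling. The causes were not tested.

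Same-numbered mice were not paired by the labels, and the correlations of their deviations lay between -0.17 and 0.23, with 1 of 6 mice best matched to its own number. A block by replicate number gave 0 genes past the adjusted threshold in edgeR (4329 at an unadjusted p below 0.05) and log2 fold changes of -1.95 for *Cybb* and -1.18 for the median of the phagocyte members. With longest transcripts as lengths, *Nox4* was at 0.431 CPM per kilobase in WT mice, and in the bases before the start alone 2.98% of windows held the interferon regulatory factor repeat. *Nox4* had 9 counts in 1 mouse and was not tested where 10 were required. Its 9 to 34 counts limit what can be said of single mice, and 6 mice per group with wide spread limit all members.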
